A study of Homo sapiens with 4 samples.

Results

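The transcripts described here encode the human enzymes that place the methyl group of N6-methyladenosine (m6A) on RNA, together with the subunits that carry and steer them. The 10 genes were taken by name (METTL3, METTL14, WTAP, VIRMA, RBM15, RBM15B, ZC3H13, CBLL1, METTL16 and PCIF1), out of 62893 genes in the count tables, and all 10 were matched to an Ensembl identifier. RNA sequencing was done on total RNA of Hep-G2 cells, a human line derived from a hepatoma, at passage 21 in every library. In the shFTO group the cells carried the shRNA TRCN0000246247 against FTO, an m6A demethylase, and in the scramble group the control shRNA SHC002, with 2 libraries in each. A single shRNA sequence represents the knockdown, and the labels do not say how it was delivered or how long it acted.

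m6A in messenger RNA is written by a large nuclear complex. METTL3 holds the active site and METTL14 binds it and helps to grip the RNA, while WTAP, VIRMA, ZC3H13, RBM15, RBM15B and CBLL1 form the regulatory part that places the pair in nuclear speckles and on chosen stretches of RNA. METTL16 works apart from this complex on structured RNAs such as the U6 small nuclear RNA and the MAT2A messenger RNA, and PCIF1 methylates only an adenosine next to the cap. FTO removes methyl groups from m6A and from the cap-adjacent mark of PCIF1.

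The libraries held 20220271 and 20706611 reads assigned to genes in shFTO, and 20047409 and 20474554 in scramble. Between the libraries of a group the counts differed by no more than sampling noise (chi-square of 1.01 per degree of freedom in shFTO, p = 0.142, and 1.02 in scramble, p = 0.0648, chi-square test over genes with at least 20 reads), against 118 to 120 between groups. The 2 libraries of a group were therefore pooled and counted as 1 sample; whether separate cultures were used is not stated in the labels. A single shFTO sample is thus set against a single scramble sample, with no replicate check and no p-value for any gene. Levels are in CPM, read counts relative to the library's total after TMM scaling, which aligns the libraries on genes of typical change, and each fold has an exact 95% interval that covers counting error only. FTO, the targeted gene, had 5.42 and 5.84 CPM in shFTO, against 31.4 and 28.5 CPM in scramble. Of 12 hepatocyte markers 11 were at least 1.2-fold lower in shFTO, and their summed level was 15702 CPM in shFTO against 36285 CPM in scramble. The bile duct markers KRT7 and KRT19 were both higher, with a summed level of 399.3 CPM in shFTO against 201.9 CPM in scramble. Nearly all of this sum was KRT19, at 397.5 CPM in shFTO against 201.9 CPM in scramble. KRT7 had 34 and 45 reads in shFTO against 0 reads in both scramble libraries. The 4 fibroblast markers did not move together. COL1A1 had 61 and 74 reads in shFTO against 2 and 3 reads in scramble, PDGFRB 77 and 80 reads in shFTO against 434 and 455 reads in scramble, ACTA2 was 1.07-fold higher (0.995 to 1.16), and COL1A2 had at most 1 read in a library. The immune markers PTPRC and CD3E and the endothelial markers PECAM1 and KDR were at 0 reads in all 4 libraries. The immune marker CD68 had at most 1 read in a library. The endothelial marker CDH5 had 0 and 3 reads in shFTO against 4 and 5 reads in scramble. The part of these marker differences in the results below was not tested, and in bulk RNA fewer cells of a type and less RNA per cell cannot be told apart.

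Of the 10 writer genes 9 passed the filter on low counts, and these did not move as a block. METTL16, METTL14, PCIF1 and ZC3H13 were higher in shFTO by 1.2-fold or more, METTL3 was lower by that much, and WTAP, VIRMA, RBM15 and CBLL1 lay between. None differed by 2-fold, which was known when the 1.2-fold cut was chosen. Over all 13767 genes that passed the filter, 27.0% reached 1.2-fold higher and 27.5% reached 1.2-fold lower, so 4 of 9 higher and 1 of 9 lower are small numbers read against a background in which such differences are common. The median log2 ratio was 0.09 over the 9 genes and 0.01 over all genes that passed. In 5 of the 9 both shFTO libraries lay above both scramble libraries in CPM, as in 41.4% of all genes, and in 1 they lay below, as in 40.2%. The scaling matters for differences of this size. With plain library sizes in place of TMM the log2 ratio at the median of all genes was 0.17 higher, every ratio moved by that amount, and 69.2% of the genes past 1.2-fold were higher in shFTO, against 49.5% with TMM.

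**Figure D1:**
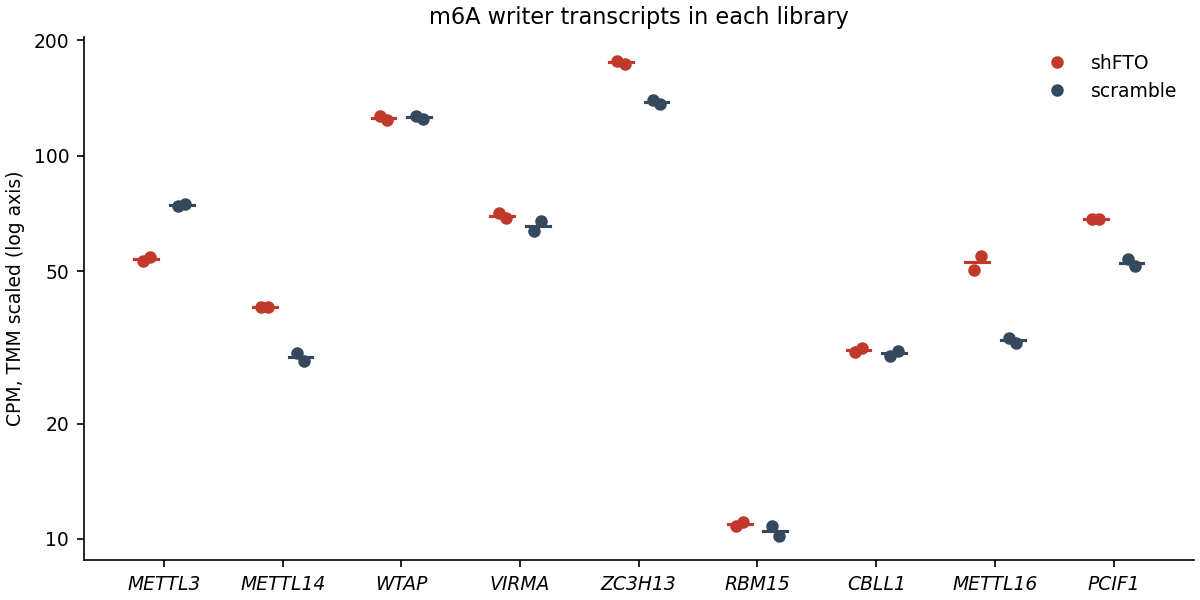
CPM of 9 m6A writer transcripts on a log axis, with shFTO (red) left of scramble (dark) and 1 point for each library; short lines are the pooled values. The libraries of a group lie close together, METTL3 is lower in shFTO, and METTL14, ZC3H13, METTL16 and PCIF1 are higher.

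METTL3 (ENSG00000165819, chromosome 14), the catalytic subunit, had 1139 and 1191 reads in shFTO, against 1395 and 1448 reads in scramble. These are 53.2 and 54.3 CPM in shFTO and 73.8 and 75.0 CPM in scramble, so both shFTO libraries were below both scramble libraries. The transcript was 1.38-fold lower in shFTO (95% counting interval 1.31 to 1.46), a log2 ratio of -0.47, and 17.1% of all genes that passed the filter had a lower ratio. With plain library sizes it was 1.23-fold lower. Its exons share 388 bases with TOX4 on the other strand, 6.58% of its annotated exon length. TOX4 was itself 1.21-fold lower (1.17 to 1.25), and the part of shared reads was not tested.

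METTL14 (ENSG00000145388, chromosome 4), the RNA-binding partner of METTL3, went the other way. It had 863 and 882 reads in shFTO, against 579 and 563 reads in scramble. At 40.3 and 40.2 CPM both shFTO libraries exceeded the 30.6 and 29.2 CPM of the scramble libraries. The ratio was 1.35-fold (1.25 to 1.45), or 1.51-fold with plain library sizes, and 16.8% of all genes that passed had a higher one.

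Since the METTL3 and METTL14 proteins act as a pair, their reads were also set against each other within each library, a ratio that no scaling can change. For each METTL3 read there were 0.758 and 0.741 METTL14 reads in the shFTO libraries, against 0.415 and 0.389 in the scramble libraries. The ratio of these ratios was 1.86 (95% conditional exact interval 1.70 to 2.05). Each of the other 7 writer transcripts also gained on METTL3. The gain was 2.21-fold for METTL16 (2.02 to 2.42), 1.80-fold for PCIF1 (1.66 to 1.94) and 1.76-fold for ZC3H13 (1.65 to 1.88), and it was smallest for WTAP, at 1.38-fold (1.29 to 1.48). All of these share the METTL3 reads as their denominator, so they are not separate pieces of evidence that METTL3 was low. Between METTL16 and METTL14 the ratio changed little, 1.19-fold (1.07 to 1.31).

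**Figure D2:**
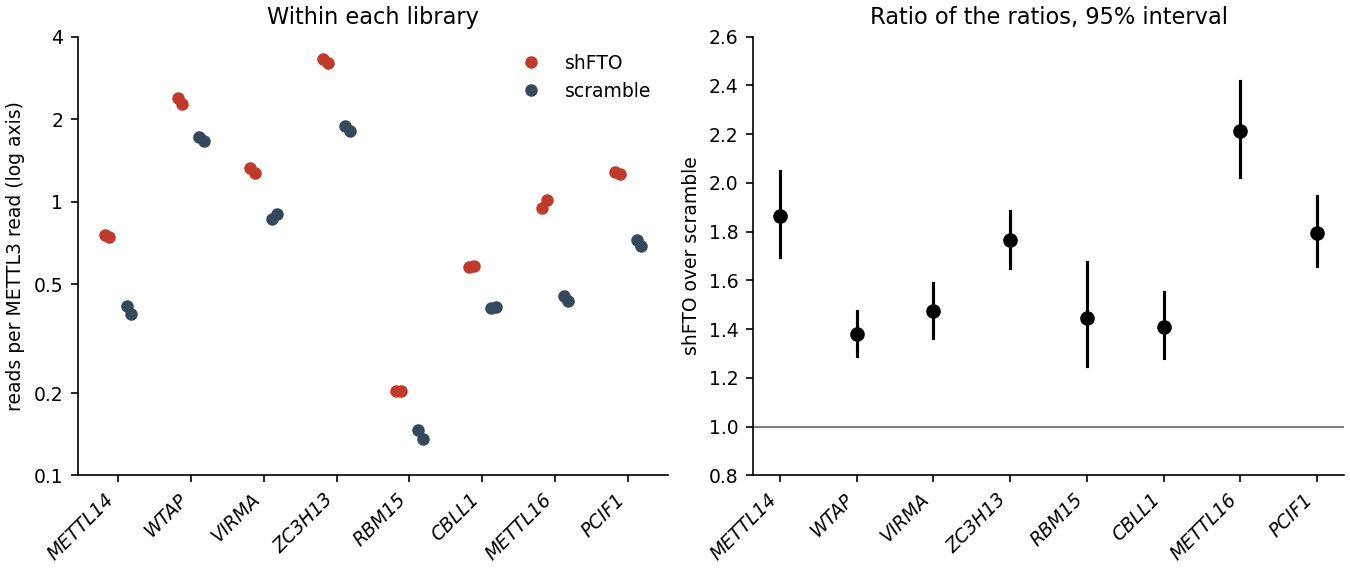
Left, reads of each writer transcript per METTL3 read in each library, on a log axis, with shFTO (red) left of scramble (dark). Right, the shFTO ratio divided by the scramble ratio with its exact 95% counting interval; all 8 lie above 1, with WTAP lowest at 1.38 and METTL16 highest at 2.21.

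The scaffold of the complex was close to level. WTAP (ENSG00000146457, chromosome 6), the adaptor that holds METTL3 and METTL14 in nuclear speckles, had 2717 and 2716 reads in shFTO, against 2400 and 2409 reads in scramble. In CPM this was 127.0 and 123.8 in shFTO and 127.0 and 124.8 in scramble, so the groups overlapped. The ratio of 0.996 had an interval of 0.958 to 1.04. The exons of WTAP share 298 bases with SOD2, the gene of a mitochondrial superoxide dismutase, on the other strand. SOD2 was 2.1-fold lower in shFTO (2.06 to 2.14), and the part of shared reads in the WTAP count was not tested.

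VIRMA (ENSG00000164944, chromosome 8), the largest scaffold subunit, known for favouring sites near the stop codon, had 70.8 and 68.9 CPM in shFTO, against 63.6 and 67.6 CPM in scramble. The libraries did not overlap, but the ratio was only 1.06-fold (1.01 to 1.12). CBLL1 (ENSG00000105879, chromosome 7), the subunit also called HAKAI, had 30.8 and 31.5 CPM in shFTO, against 30.1 and 31.0 CPM in scramble, which overlap, with a ratio of 1.02 (0.942 to 1.10). Relative to WTAP, and so free of scaling, VIRMA was at 1.07 (1 to 1.14) and CBLL1 at 1.02 (0.937 to 1.12). With plain library sizes WTAP, VIRMA and CBLL1 stood at 1.12-fold, 1.195-fold and 1.14-fold higher.

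ZC3H13 (ENSG00000123200, chromosome 13), a zinc finger protein that anchors the regulatory part in the nucleus, had the highest ratio of the regulatory subunits. It had 3793 and 3819 reads in shFTO, against 2634 and 2631 reads in scramble, the most reads of any writer gene in all 4 libraries. These are 177.3 and 174.1 CPM in shFTO and 139.4 and 136.3 CPM in scramble, without overlap. The ratio was 1.27-fold (1.23 to 1.32), and relative to WTAP it was 1.28-fold (1.21 to 1.35).

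The RNA-binding recruiters are RBM15 and RBM15B. RBM15 (ENSG00000162775, chromosome 1) was the least abundant of the 9, with 231 and 243 reads in shFTO, against 204 and 196 reads in scramble. At 10.8 and 11.1 CPM in shFTO and 10.8 and 10.2 CPM in scramble the groups overlapped, and the ratio of 1.045 had a wide interval of 0.9125 to 1.196. Its antisense neighbour RBM15-AS1 had 1 and 2 reads in shFTO and 7 and 4 reads in scramble, and the part of their 175 shared bases in the RBM15 count was not tested. RBM15B (ENSG00000259956, chromosome 3) was listed at 0 reads in all 4 libraries. In the annotation used for names, 1325 bases of its exons (19.95%) are shared with DCAF1 on the other strand. The part of this overlap in the 0 was not tested, and no level of RBM15B is read from this identifier.

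METTL16 (ENSG00000127804, chromosome 17) showed the largest ratio of the 9. It had 1079 and 1203 reads in shFTO, against 632 and 627 reads in scramble. At 50.4 and 54.8 CPM both shFTO libraries were above the 33.5 and 32.5 CPM of the scramble libraries. The ratio was 1.60-fold (1.49 to 1.71) in shFTO over scramble, or 1.79-fold with plain library sizes, and 9.2% of all genes that passed the filter had a higher one.

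METTL16 is known to bind and methylate hairpins in the 3′ untranslated region of MAT2A, the gene of the S-adenosylmethionine (SAM) synthetase subunit of most tissues, and thereby to adjust that messenger RNA to the supply of SAM, the methyl donor of every writer. The sites are shown because MAT2A is the best known messenger RNA target of METTL16. A search of the annotated 2819-base MAT2A transcript for the nonamers TACAGAGAA and TACAGAAAA, on the transcribed strand, found 6 matches, all in the 1508 bases after the stop codon, 5 of the first kind and 1 of the second. They are given 5′ to 3′ from the GENCODE release 29 transcript, as DNA letters, with the nonamer in capitals between flanks of 10 bases. Site 1 lies at chr2:85543802-85543830 and site 6 at chr2:85545112-85545140 (GRCh38, + strand).
Site 1: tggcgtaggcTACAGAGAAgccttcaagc
Site 2: tgtgatgtcaTACAGAGAAgtcacagggc
Site 3: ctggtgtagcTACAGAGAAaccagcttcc
Site 4: atggcgtaagTACAGAGAAgccatcacct
Site 5: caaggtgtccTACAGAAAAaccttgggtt
Site 6: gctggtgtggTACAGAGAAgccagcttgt

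Of 16101 coding transcripts of at least that length, 3.46% held 1 or more of these nonamers in their last 1508 bases, and 1 of them, MAT2A, held as many as 6. The nonamers were chosen as METTL16 motifs with MAT2A already known as its target, so this count is not separate support for that link. A match describes the letters only and does not show that a site was methylated here.

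MAT2A (ENSG00000168906) had 6778 and 6934 reads in shFTO, against 2980 and 3015 reads in scramble. Its level was 316.8 and 316.1 CPM in shFTO and 157.7 and 156.2 CPM in scramble, far apart. The transcript was 2.02-fold higher (1.96 to 2.08), and 5.09% of all genes that passed had a higher ratio. Under the other scalings the fold ranged from 2.01 to 2.27. MAT1A, the synthetase gene typical of adult liver, moved the other way, with 41.8 and 40.8 CPM in shFTO against 88.7 and 88.9 CPM in scramble. MAT1A was 2.15-fold lower (2.03 to 2.28). Within a library there were 7.58 and 7.76 MAT2A reads for each MAT1A read in shFTO, against 1.78 and 1.76 in scramble, a 4.34-fold difference (4.06 to 4.63) that no scaling alters. MAT2B, the regulatory subunit that pairs with MAT2A, had 77.3 and 69.1 CPM in shFTO and 77.86 and 77.85 CPM in scramble, 1.06-fold lower (1.01 to 1.12). Reads spliced to or retaining the last MAT2A intron, on which METTL16 acts, cannot be separated in counts per gene.

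**Figure D3:**
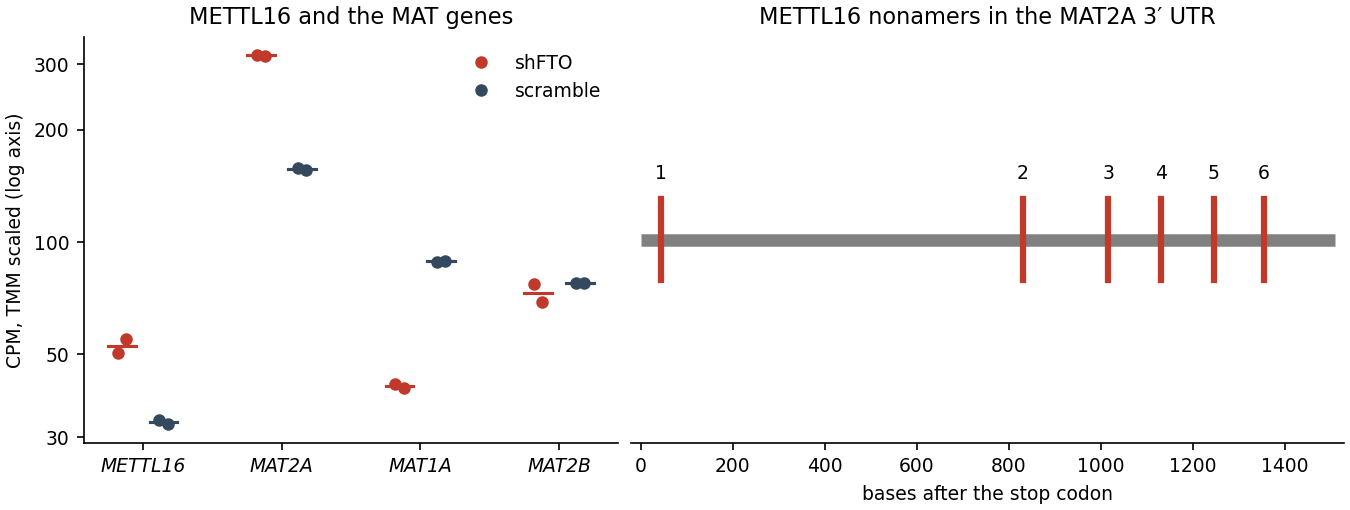
Left, CPM of METTL16 and of the 3 SAM synthetase genes in each library on a log axis, with shFTO (red) left of scramble (dark) and lines at the pooled values. Right, distance from the stop codon, in bases, of the 6 METTL16 nonamers in the MAT2A 3′ untranslated region, drawn to scale; sites 2 to 6 lie in its distal part.

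PCIF1 (ENSG00000100982, chromosome 20), which methylates the 2′-O-methyladenosine next to the cap, had 1460 and 1497 reads in shFTO, against 1013 and 996 reads in scramble. At 68.2 CPM in each shFTO library, and 53.6 and 51.6 CPM in scramble, the groups did not overlap. The ratio was 1.298-fold (1.23 to 1.37), with 19.5% of all genes that passed above it. Genes that build the cap did not share one direction. Of 7 tested, 2 were higher and 3 lower by 1.2-fold or more, with a median log2 ratio of -0.10. CMTR2, which methylates the ribose of the second cap-adjacent nucleotide, was 1.31-fold higher (1.135 to 1.52), and RAMAC, the activator of the cap guanine methyltransferase, 1.203-fold higher (1.10 to 1.32). That methyltransferase, RNMT, was 1.29-fold lower (1.22 to 1.36), the capping enzyme RNGTT 1.46-fold lower (1.34 to 1.60) and the cap-binding subunit NCBP2 1.64-fold lower (1.59 to 1.69). CMTR1, whose ribose methylation at the first nucleotide gives PCIF1 its preferred substrate, had 113.7 and 118.7 CPM in shFTO and 125.1 and 124.5 CPM in scramble, 1.07-fold lower (1.03 to 1.12). With plain library sizes 3 were higher and 2 lower, and the median of the cap list was 0.07.

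**Figure D4:**
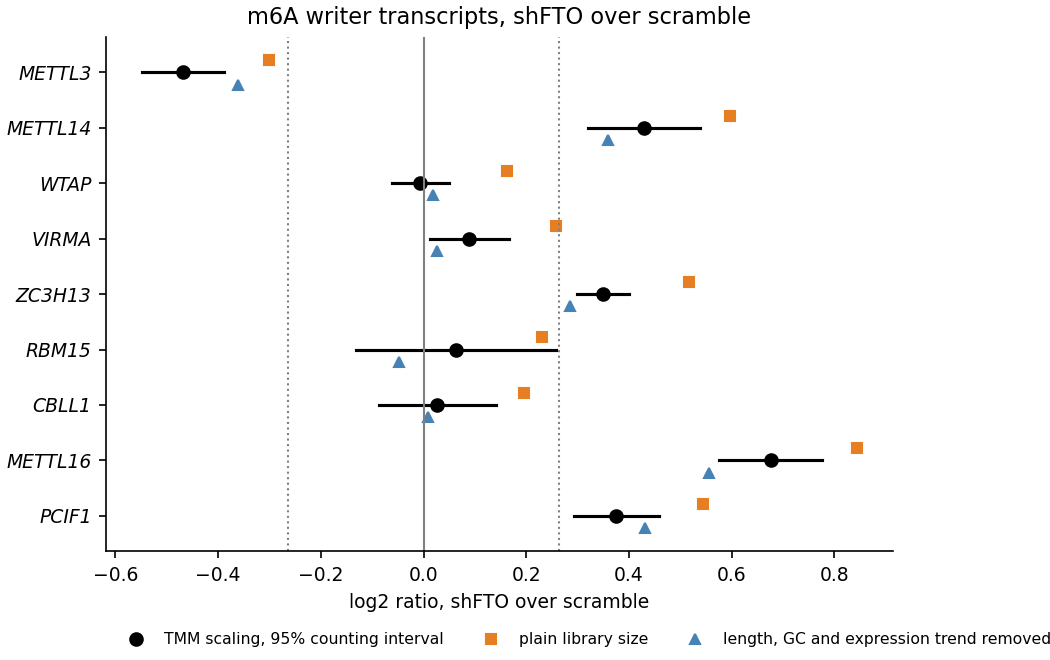
Log2 ratio of shFTO over scramble for 9 writer transcripts; black points with bars are TMM values with exact 95% counting intervals, squares plain library sizes, and triangles values after smooth trends were taken out. Dotted lines mark 1.2-fold; METTL3, METTL14, ZC3H13, METTL16 and PCIF1 lie beyond them under all 3.

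Summed over the 9 genes, writer transcripts reached 628.8 and 627.0 CPM in the shFTO libraries, against 562.5 and 558.1 CPM in the scramble libraries, a 1.12-fold difference. The size of this sum depends on the scaling, whereas its composition does not, and both differed between the groups. METTL3 supplied 8.56% of writer reads in shFTO (95% Clopper-Pearson interval 8.23 to 8.90), against 13.3% in scramble (12.8 to 13.7). METTL16 supplied 8.39% in shFTO (8.06 to 8.72), against 5.88% in scramble (5.57 to 6.21). ZC3H13 made up 28.0% in shFTO and 24.6% in scramble, and WTAP 19.97% in shFTO and 22.5% in scramble. Shares of reads follow transcript length as well as abundance.

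Levels per length were compared as RPKM, the CPM value per kilobase of the longest annotated coding transcript. In shFTO the order was WTAP at 34.3, METTL3 at 26.7, PCIF1 at 24.8, ZC3H13 at 21.9, VIRMA at 10.7, METTL16 at 9.22, CBLL1 at 7.02, METTL14 at 6.04 and RBM15 at 2.58 RPKM. In scramble METTL3 came first at 36.9 RPKM, before WTAP at 34.4, PCIF1 at 19.1, ZC3H13 at 17.2, VIRMA at 10.1, CBLL1 at 6.89, METTL16 at 5.77, METTL14 at 4.48 and RBM15 at 2.47 RPKM. In neither group did the libraries of neighbours in this order overlap. The pairs of neighbours that changed places, METTL3 with WTAP and METTL16 with CBLL1, were thus apart in both groups on this length. METTL3 had a higher RPKM than METTL14 in both groups, 26.7 against 6.04 in shFTO and 36.9 against 4.48 in scramble. Both the order and this gap depend on the length used, since the longest coding METTL3 transcript has 2015 bases and all its annotated exons together 5894. Per exon length, METTL3 stood at 9.12 and METTL14 at 5.87 RPKM in shFTO, and at 12.6 and 4.36 RPKM in scramble. On that length METTL3 ranked 4 of 9 in both groups and did not change places with WTAP. The top of the order was then PCIF1 at 21.2 before WTAP at 19.5 RPKM in shFTO, and WTAP at 19.6 before PCIF1 at 16.3 RPKM in scramble.

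The writers lay on 10 different chromosomes, and those past 1.2-fold spanned most of the range of lengths and GC contents. The transcripts of METTL3 and PCIF1 are the shortest of the 9, at 2015 and 2747 bases, and differed in opposite directions. METTL14 and PCIF1, both higher, have GC contents of 38.4% and 60.3%, the lowest and highest of the 9. After smooth trends along length, GC content and expression were taken out, METTL3 was 1.28-fold lower and METTL16 1.47-fold higher. PCIF1 was then 1.35-fold, METTL14 1.28-fold and ZC3H13 1.22-fold higher. METTL3, METTL16 and ZC3H13 thereby moved closer to level, to values outside their TMM counting intervals. METTL14 moved closer and PCIF1 farther, both within theirs. The other 4 were near level, RBM15 being the farthest off at 1.03-fold lower.

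Genes that work with the writers gave a mixed picture. Of 6 messenger RNA processing partners, which bind WTAP or VIRMA or link the complex to chromatin or ribosomes, 2 were higher and 1 lower by 1.2-fold or more (median log2 ratio 0.22). The WTAP-associated proteins BCLAF1 and THRAP3 were higher, by 1.34-fold (1.298 to 1.38) and 1.23-fold (1.197 to 1.265), and the translation factor subunit EIF3H was 1.27-fold lower (1.22 to 1.31). The 5 writer relatives were all within 1.2-fold (median -0.02), whereas with plain library sizes 1 of them was past it, on the higher side (median 0.14). They are METTL5 and ZCCHC4, which methylate ribosomal RNA, TRMT112, the METTL5 partner, METTL4, and SPEN, the namesake of the RBM15 family. METTL5 had 50.4 and 52.7 CPM in shFTO, against 52.3 and 52.4 CPM in scramble.

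Of 9 genes of SAM supply and recycling 2 were higher and 3 lower by 1.2-fold or more (median log2 ratio -0.20). These counts were 3 higher and 1 lower with plain library sizes, and 1 higher and 3 lower with DESeq2 size factors. Besides MAT2A, GNMT, a liver enzyme that uses up SAM, had 3.74 and 3.88 CPM in shFTO, against 3.18 and 3.16 CPM in scramble, a ratio of 1.202 with an interval of 0.945 to 1.53. Besides MAT1A, AHCY, which breaks down the S-adenosylhomocysteine that inhibits the writers, was 1.27-fold lower (1.24 to 1.29), and ADK, which clears the adenosine released, 1.32-fold lower (1.25 to 1.395). Of 14 m6A readers 3 were higher and 1 lower by 1.2-fold or more (median 0.13), with YTHDF1, a cytoplasmic reader, 1.34-fold higher (1.29 to 1.395), YTHDF3 1.26-fold (1.199 to 1.325) and IGF2BP1 1.255-fold higher (1.22 to 1.29), and FMR1 1.63-fold lower (1.555 to 1.71). The second demethylase, ALKBH5, had 96.0 and 96.9 CPM in shFTO, against 109.1 and 108.9 CPM in scramble. With plain library sizes 8 of the 14 readers and 5 of the 6 partners reached 1.2-fold higher, as did 42.0% of all genes that passed the filter. The counts for the reader, partner, relative, SAM and cap lists thus rest on the scaling. The writer counts stayed at 4 higher and 1 lower, but VIRMA, at 1.195-fold with plain library sizes, was just under the cut. The 4 of 9 writers higher then stood beside the same 42.0% of all genes.

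**Figure D5:**
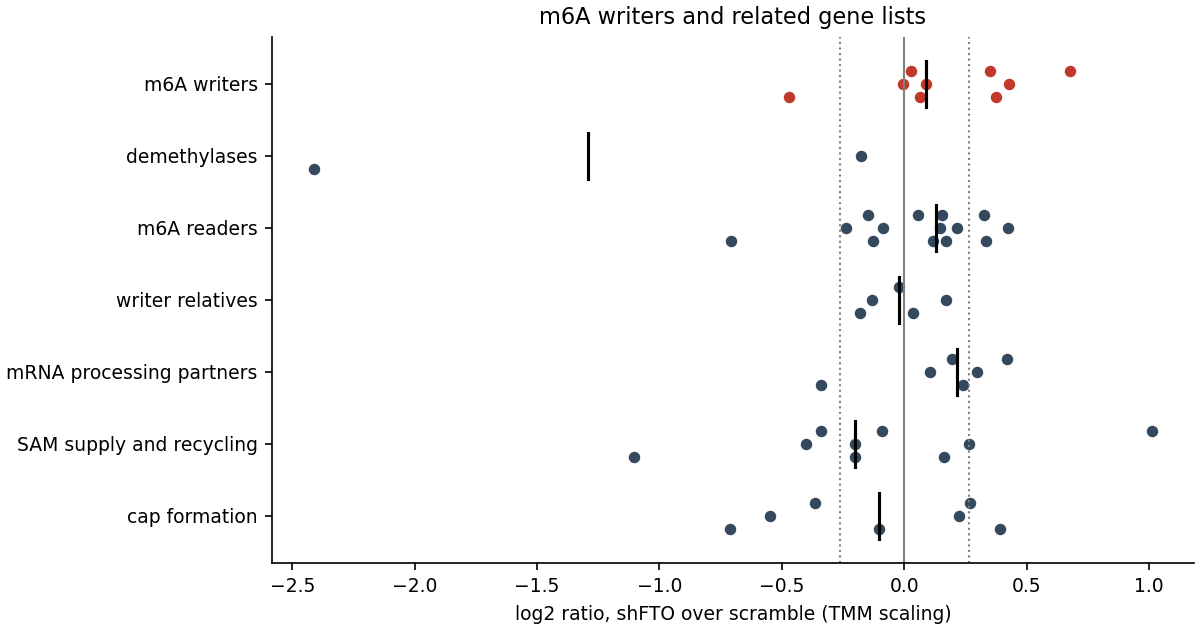
Log2 ratio of shFTO over scramble (TMM scaling) for each tested gene of 7 lists, the m6A writers in red; black bars are list medians and dotted lines mark 1.2-fold. The far left point among the demethylases is FTO, and the outer points of SAM supply are MAT1A on the left and MAT2A on the right.

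The edgeR quasi-likelihood test with Benjamini-Hochberg adjustment over all genes, run on the 4 libraries as if they were independent, called 5 writers higher (METTL14, VIRMA, ZC3H13, METTL16 and PCIF1) and METTL3 lower, with 33.2% of all genes called higher and 33.4% lower. The spread in that test is the sampling noise between libraries of 1 sample, so these calls compare the libraries and not the conditions. VIRMA was not called without a count filter, in DESeq2, or without scramble replicate 1 or shFTO replicate 1. WTAP, RBM15 and CBLL1 were not called with TMM but were called higher with plain library sizes. A missing call does not show that a transcript was equal in both groups.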

How the data were processed

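The 4 tables that the authors deposited hold unnormalized read counts for Ensembl genes. The submitters' processing notes name TopHat2 2.1.1, HTSeq 0.6.0 and hg19. The sources used here give no annotation release, strand setting or counting mode, so overlapping and antisense genes cannot be separated. Symbols came from GENCODE release 29 (GRCh38), which named 51537 of 62893 identifiers; that annotation also gave chromosomes, lengths, GC content and exon overlaps. Identifiers without a name held 0.623% of reads.

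Genes were filtered with filterByExpr and scaled by TMM in edgeR 4.0.16 (R 4.3.3), the 2 libraries of a group were pooled, and each fold carries an exact interval (Clopper-Pearson) from how the reads split between groups. A fold of 1.2 was used for counts because the writers were known, from earlier results of these data, to differ by less than 2-fold. Ratios between 2 genes carry exact conditional intervals. Intervals cover counting error only, and with no culture-to-culture spread they are too narrow for a difference between conditions. The quasi-likelihood test used an adjusted p under 0.05. The quasi-likelihood test and the fold intervals were run on simulated counts with planted folds, drawn independently for each library. Those runs give no information on the culture-to-culture spread of these cells. Trends were fitted with mgcv 1.9.3 to genes with at least 1 CPM.

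Members and lists were chosen with earlier results of these data known. Named are all writers, FTO, MAT2A and, in each list, up to 3 genes each way of those past 1.2-fold; MAT2B, CMTR1, METTL5 and ALKBH5 were named after their values were seen. Alternatives were other scalings, no count filter, DESeq2 1.42.0, a replicate block, leaving out single libraries, and trend removal.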

Additional observations from a re-analysis of the deposited data

How the results depend on the processing

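Each writer's ratio was recomputed under 8 alternatives (plain library size, DESeq2 size factors, upper quartile scaling, leaving out each of the 4 libraries, and trend removal). METTL3, METTL14, ZC3H13, METTL16 and PCIF1 kept their direction and stayed past 1.2-fold in all 8. Their log2 ratios ranged from -0.49 to -0.30, 0.36 to 0.60, 0.29 to 0.52, 0.56 to 0.84 and 0.34 to 0.54. The other 4 stayed under 1.2-fold in all 8, VIRMA only just, at 1.195-fold with plain library size. The counts of 4 higher and 1 lower thus did not change. WTAP, RBM15 and CBLL1 changed sign in at least 1 of the 8. Without 1 library at a time the METTL14 to METTL3 ratio lay between 1.80 and 1.93 and the METTL16 to METTL3 ratio between 2.14 and 2.28. The libraries of a group were counted as 1 sample, so leaving out a library re-reads that sample at lower depth. Little change was bound to follow, and a difference between separate cultures is not tested by it. In edgeR, 8 writers were called higher with plain library size and 5 in the main test, 4 or 5 under the other alternatives, and METTL3 was the 1 called lower in each; only VIRMA was lost, without a count filter, in DESeq2, and without scramble replicate 1 or shFTO replicate 1. Of all 13767 genes that passed the filter, edgeR called 6711 higher and 3041 lower with plain library size, against 4576 and 4594 with TMM. Of the same genes it called 4515 higher and 4656 lower with DESeq2 size factors, and 5199 and 4142 with upper quartile scaling. DESeq2 itself called 3256 higher and 3624 lower. Without a count filter edgeR called 3962 of 26186 genes higher and 4291 lower. With the replicate number as a block (replicate block) edgeR called 5 writers higher and 1 lower, beside 4606 and 4610 of the 13767 genes. Deviations of same-numbered libraries had a correlation of 0.0041 across genes. Since the libraries of a group differed by no more than sampling noise, this value cannot show whether the numbers pair the samples. Ranked per exon length, an alternative chosen after seeing the data, METTL3 was the fourth of the 9 in both groups. Depth limits RBM15 most, and the 0 of RBM15B gives no level.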
